A study of Homo sapiens with 12 samples.

Results

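The sterol and fatty acid synthesis genes described here were 36 genes of the 57187 in the deposited count table, chosen by name: 5 regulators of the SREBP pathway, 7 genes of the mevalonate steps, 11 genes of the steps from squalene to cholesterol, 4 genes of sterol transport and efflux and 9 genes of fatty acid synthesis and desaturation. RNA sequencing measured them in 12 libraries of 4 established human lines, MDA-MB-231 and HCC1954 from breast cancer and OVCAR8 and SKOV3 (labelled OVAR-8 and SKOV-3) from ovarian cancer. For each there was 1 library of control cells, 1 of cells transfected with wild-type SIVA (SIVA-WT) and 1 of cells transfected with SIVA carrying the D160N substitution (SIVA-D160N), so a difference within a line had no replicate check and the 4 lines served as the replicates of a condition. The labels call the control cells parental and untreated, whereas a supplement of the study calls them empty vector, so it is not settled whether the controls went through transfection and hygromycin selection. The transfected cells were polyclonal stable pools in which SIVA was driven by a CMV promoter, and all 12 libraries came from cells grown in medium with serum, a source of cholesterol and fatty acids.

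Cholesterol and fatty acid synthesis are controlled together by the SREBP transcription factors. SREBF1 and SREBF2 encode the precursors, SCAP escorts them from the endoplasmic reticulum to the Golgi for cleavage, and INSIG1 and INSIG2 hold SCAP back when sterols are plentiful. SREBF2 is best known for switching on cholesterol synthesis and SREBF1 for fatty acid synthesis, and SREBF1, SREBF2 and INSIG1 are themselves SREBP targets. Cancer cells often run both pathways at a high rate to build membranes.

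The promoters of 4 members are shown, those of the 3 genes with the lowest fitted values below (SCD, SREBF1 and INSIG1) and that of SREBF2, the precursor gene of the cholesterol side. RefSeq (GRCh38.p14) gave a promoter window, from 250 bases before to 50 bases after the gene start, for 31 of the 36 members. All 4 are printed in the direction of transcription, with capitals marking every match, on either strand, to 4 motifs: the sterol response element letters TCACNCCAC, the E-box letters TCANNTGA, the CCAAT box and the GC box GGGCGG. SREBF2 lies at chr22:41832855-41833154 on the plus strand, INSIG1 at chr7:155297628-155297927 on the plus strand, SCD at chr10:100346983-100347282 on the plus strand and SREBF1 at chr17:17836937-17837236 on the minus strand.
SREBF2: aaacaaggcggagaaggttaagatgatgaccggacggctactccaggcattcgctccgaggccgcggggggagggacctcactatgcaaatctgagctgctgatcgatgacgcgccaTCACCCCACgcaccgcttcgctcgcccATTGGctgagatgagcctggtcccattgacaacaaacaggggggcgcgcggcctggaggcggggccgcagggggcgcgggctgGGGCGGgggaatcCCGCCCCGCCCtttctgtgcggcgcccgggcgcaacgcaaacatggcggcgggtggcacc
INSIG1: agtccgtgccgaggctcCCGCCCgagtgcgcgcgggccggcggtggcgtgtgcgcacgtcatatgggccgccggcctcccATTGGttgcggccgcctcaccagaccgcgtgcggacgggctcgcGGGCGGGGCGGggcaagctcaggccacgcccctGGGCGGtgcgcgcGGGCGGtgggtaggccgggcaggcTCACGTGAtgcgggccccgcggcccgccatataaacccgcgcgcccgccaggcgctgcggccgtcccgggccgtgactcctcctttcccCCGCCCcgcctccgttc
SCD: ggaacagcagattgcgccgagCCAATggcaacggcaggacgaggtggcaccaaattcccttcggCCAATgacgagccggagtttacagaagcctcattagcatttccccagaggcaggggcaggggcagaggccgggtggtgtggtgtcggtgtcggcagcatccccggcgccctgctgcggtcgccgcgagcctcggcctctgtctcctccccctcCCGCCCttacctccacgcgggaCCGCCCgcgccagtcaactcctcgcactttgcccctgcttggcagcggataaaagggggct
SREBF1: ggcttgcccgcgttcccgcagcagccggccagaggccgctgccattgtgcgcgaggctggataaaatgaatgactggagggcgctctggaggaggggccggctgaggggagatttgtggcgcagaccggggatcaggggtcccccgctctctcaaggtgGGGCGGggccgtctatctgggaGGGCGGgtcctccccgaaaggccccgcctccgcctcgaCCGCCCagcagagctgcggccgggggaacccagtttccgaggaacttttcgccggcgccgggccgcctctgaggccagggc

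The sterol response element letters were found in the window of SREBF2 only, at 133 bases before its start, among the 31 members and in 1.13% of 35116 promoters of all genes. The E-box letters were found in INSIG1, 56 bases before its start, and in EBP, against 7.31% of all promoters. A CCAAT box stood in 22 of the 31 members, SREBF2, INSIG1 and SCD among them, against 34.6% of all promoters. A GC box stood in 30 of the 31 members, against 45.0% of all promoters. In the SREBF2 window, the last GC box shares 1 base with the one before it, and in the INSIG1 window the second and the third GC box likewise share 1 base. The window of SREBF1 held GC boxes and none of the other 3 motifs. The promoters of all genes were not limited to genes expressed in these lines or matched for base content. These matches describe the letters of the windows.

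Total counts per library ran from 35791455 to 45890398. Levels are given in CPM, the counts scaled to a TMM-adjusted library size, which compare a gene between libraries and not different genes with each other. SIVA1 itself (ENSG00000184990, chr14:104753147-104759654, GRCh38) was at 28.1, 80.7 and 68.2 CPM in MDA-MB-231, 0, 38.2 and 26.5 CPM in HCC1954, 66.3, 177 and 161 CPM in OVCAR8 and 52.6, 106 and 112 CPM in SKOV3 in the parental, SIVA-WT and SIVA-D160N libraries, in this order. The library labelled parental HCC1954 held 0 SIVA1 counts, which allows a level of up to 0.0720 CPM (3 counts, counting error only), whereas the other 3 parental libraries held 28.1 to 66.3 CPM. SIVA1 was at least 369-fold higher in SIVA-D160N than in parental HCC1954 and 2.13 to 2.43-fold higher in the other 3 lines, and a two-sided exact permutation test by sign flips over the 4 lines gave p = 0.13, the smallest it can give. Of the line markers, ERBB2 was highest in HCC1954 and SKOV3, and VIM was at 95.6 to 290.2 CPM in HCC1954 and at 2933 CPM or more in the other 3 lines. The epithelial markers CDH1, EPCAM and KRT8 were highest in HCC1954, but KRT19 was highest in MDA-MB-231 (89.7 CPM in parental, against 30.9 CPM in parental HCC1954). PAX8 was higher in both ovarian lines. The breast marker GATA3 was highest in HCC1954, but at 1.79 CPM in parental MDA-MB-231 against 5.92 CPM in parental OVCAR8. PTPRC, CD3E and CD68, markers of blood cells, were under 1 CPM in all 12 libraries. The summed level of the 7 markers of other cells was 8.52 to 348 CPM in parental, 9.17 to 409 CPM in SIVA-WT and 7.70 to 505 CPM in SIVA-D160N libraries, mostly COL1A1 and PECAM1.

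The SREBP regulators SREBF1, SREBF2 and INSIG1 and the desaturase SCD were at a lower level in SIVA-D160N than in parental cells in 4 of 4 lines, and these 4 differences were largest in HCC1954. SCD, SREBF1 and INSIG1 had the lowest fitted values, at log2 fold changes of -1.22, -1.07 and -0.84. None of the members passed the thresholds of the test. Genes were called from edgeR's quasi-likelihood fit with a term for the line, by the study's thresholds, a Benjamini-Hochberg adjusted p (FDR) below 0.05 with a log2 fold change of 1.5 or more in either direction. Fitted log2 fold changes are given ± SE. By this rule 0 of the 35 members tested were called in SIVA-D160N vs parental, where 0.00581% of all 17211 genes tested were called (1 gene). Without the fold limit the count was again 0 of 35, against 0.00581% of all genes, which is 1 gene. The lowest FDR of a member was 0.133, for SREBF1. The 36th member, ABCG1, did not pass the filter on low counts, being at most 1.10 CPM.

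At an unadjusted p under 0.05, 11 of the 35 members (31.4%) were lower in SIVA-D160N than in parental cells, against 7.68% of all genes, and 0 were higher, against 6.52%. The 11 were SREBF1, SREBF2, INSIG1, FDPS, TM7SF2, STARD4, MYLIP, ACSS2, SCD, FADS2 and LPIN1. The fitted log2 fold change was below 0 for 30 members and above 0 for 5, with a median of -0.22 over the members and -0.0090 over all genes. With the sign taken in each line, 7 members (SREBF1, SREBF2, INSIG1, FDPS, TM7SF2, MSMO1 and SCD) were lower in 4 of 4 lines, 20.0% of the 35 against 8.34% of all genes, and 0 were higher in 4 of 4 lines, against 6.85% of all genes. The FDR depended on the tool. With DESeq2, SREBF1, INSIG1, SCD and LPIN1 had an FDR under 0.05 (4 of 35, against 1.98% of all genes), and with every gene of at least 1 count in the edgeR fit SREBF2 joined them (5 of 36, against 1.58%), while their fold changes stayed under the limit.

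**Figure D1:**
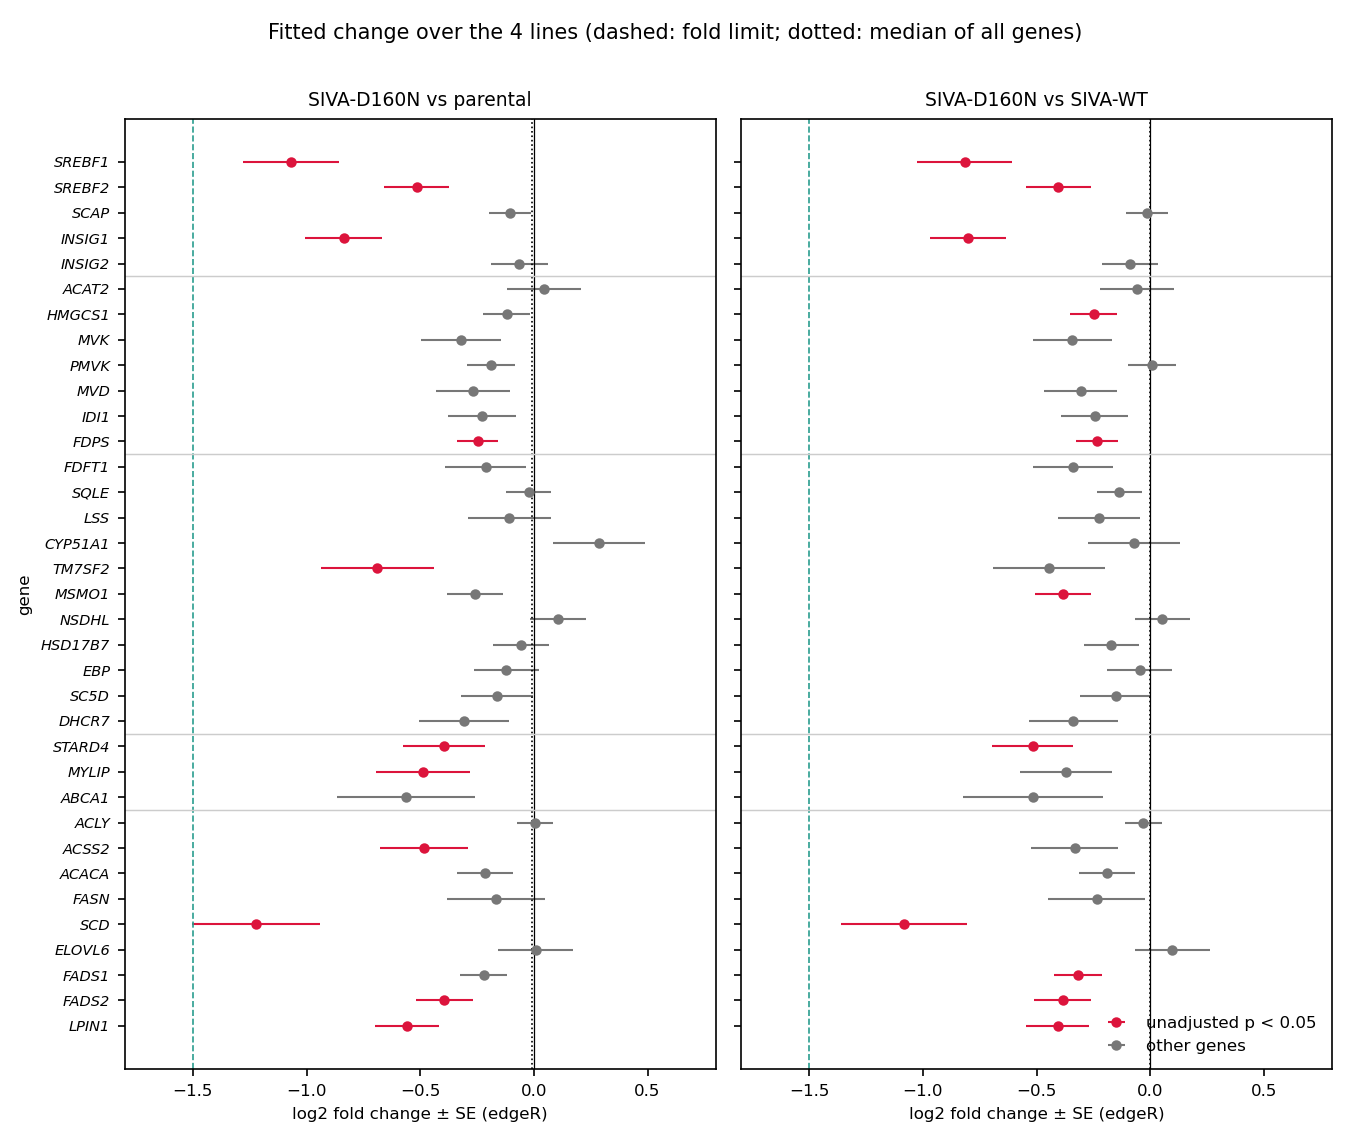
Fitted log2 fold change of each of the 35 members tested (points, with SE bars from edgeR over 12 libraries), in SIVA-D160N vs parental and in SIVA-D160N vs SIVA-WT, in the order regulators, mevalonate, squalene to cholesterol, transport and fatty acid synthesis. Red points have an unadjusted p under 0.05; SCD, SREBF1 and INSIG1 lie farthest below 0 in both panels, and no point reaches the dashed fold limit of -1.5.

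Among the regulators, SREBF1 was at 139.5, 111 and 90.7 CPM in MDA-MB-231, 259.9, 147 and 70.5 CPM in HCC1954, 58.4, 65.0 and 41.1 CPM in OVCAR8 and 76.0, 79.1 and 31.5 CPM in SKOV3 in the parental, SIVA-WT and SIVA-D160N libraries, the order used for each line from here on. In every line the SIVA-D160N library was the lowest, at 27.1% of the parental level in HCC1954, 41.5% in SKOV3, 65.0% in MDA-MB-231 and 70.4% in OVCAR8. The fit gave a log2 fold change -1.07 ± 0.21, FDR = 0.13 in SIVA-D160N vs parental. SREBF1 also belongs to a table of genes that the study chose on these samples, so its value is not independent evidence. The study drew that table from genes it reported as differing between SIVA-D160N and control cells by edgeR's quasi-likelihood model. SREBF1 was not called here, and the reason for the difference was not tested.

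SREBF2, the cholesterol-side factor, was at 227, 192 and 166 CPM in MDA-MB-231, 206, 168 and 91.1 CPM in HCC1954, 133, 149 and 126 CPM in OVCAR8 and 200.2, 196 and 155 CPM in SKOV3. Its SIVA-D160N library was the lowest of each line, close to the parental one in OVCAR8 (94.1% of it) and farthest from it in HCC1954 (44.2%). The fit gave a log2 fold change -0.52 ± 0.14, FDR = 0.19. INSIG1, which retains the SCAP complex and is itself induced by SREBP, was at 145, 156 and 123 CPM in MDA-MB-231, 80.9, 71.7 and 30.0 CPM in HCC1954, 30.0, 36.6 and 20.7 CPM in OVCAR8 and 92.8, 75.8 and 41.7 CPM in SKOV3. It was lowest in the SIVA-D160N library of each line, at 37.1% of parental in HCC1954 and 44.9% in SKOV3 against 84.3% in MDA-MB-231. Its log2 fold change -0.84 ± 0.17, FDR = 0.14 made it the member with the second lowest FDR. SCAP (-0.10 ± 0.092 (FDR = 0.64)) and INSIG2 (-0.063 ± 0.12 (FDR = 0.86)), the other two regulators, had fitted log2 fold changes whose p missed 0.05, and their 12 libraries spanned 49.5 to 78.5 CPM and 14.7 to 45.6 CPM.

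Of the fatty acid genes, SCD, the stearoyl-CoA desaturase that makes monounsaturated fatty acids, had the lowest fitted value of all members. SCD was at 1635, 1495 and 1301 CPM in MDA-MB-231, 1807, 1261 and 361 CPM in HCC1954, 306, 379.7 and 195 CPM in OVCAR8 and 722, 668 and 218 CPM in SKOV3. The SIVA-D160N library held 20.0% of the parental level in HCC1954 and 30.1% in SKOV3, but 79.6% in MDA-MB-231 and 63.8% in OVCAR8, so the direction was shared and the size was not. The fit gave a log2 fold change -1.22 ± 0.28, FDR = 0.15. LPIN1, a phosphatidate phosphatase of triglyceride synthesis, was at 278, 191 and 157 CPM in MDA-MB-231, 43.7, 38.7 and 26.1 CPM in HCC1954, 28.1, 36.5 and 29.2 CPM in OVCAR8 and 77.0, 67.0 and 48.7 CPM in SKOV3. LPIN1 was lower in SIVA-D160N than in parental cells in 3 lines and at 104% of parental in OVCAR8 (log2 fold change -0.56 ± 0.14, FDR = 0.16).

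FADS2, the delta-6 desaturase of polyunsaturated fatty acids, was at 234, 253 and 242 CPM in MDA-MB-231, 15.7, 15.7 and 9.51 CPM in HCC1954, 101, 110.0 and 82.8 CPM in OVCAR8 and 57.5, 47.7 and 35.8 CPM in SKOV3. It was lower in SIVA-D160N than in parental cells in 3 lines and at 103% of parental in MDA-MB-231 (log2 fold change -0.39 ± 0.13, FDR = 0.22). ACSS2, which makes acetyl-CoA from acetate, was at 87.3, 59.6 and 45.1 CPM in MDA-MB-231, 62.3, 56.2 and 29.3 CPM in HCC1954, 11.3, 10.9 and 11.0 CPM in OVCAR8 and 39.3, 45.8 and 43.7 CPM in SKOV3. The parental and SIVA-D160N values lay apart in the breast lines (51.6% of parental in MDA-MB-231 and 47.1% in HCC1954) and near each other in OVCAR8 (97.8%) and SKOV3 (111%), and the fit gave a log2 fold change -0.48 ± 0.19, FDR = 0.3.

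The enzymes that build saturated fatty acids had fitted values nearer to 0 than SCD. Fitted log2 fold changes in SIVA-D160N vs parental were 0.0047 ± 0.080 (FDR = 0.99) for ACLY, which makes cytosolic acetyl-CoA from citrate, -0.22 ± 0.12 (FDR = 0.46) for ACACA, the acetyl-CoA carboxylase, -0.17 ± 0.22 (FDR = 0.77) for FASN, the fatty acid synthase, and 0.0078 ± 0.17 (FDR = 0.99) for ELOVL6, an elongase. FASN was at 227, 266 and 267 CPM in MDA-MB-231, 1011, 676 and 463 CPM in HCC1954, 409.7, 466 and 333 CPM in OVCAR8 and 314, 474 and 467 CPM in SKOV3, so the SIVA-D160N library was below the parental one in HCC1954 and OVCAR8 and above it in MDA-MB-231 and SKOV3. FADS1, the delta-5 desaturase, had -0.22 ± 0.10 (FDR = 0.36). In all, 4 of the 9 fatty acid genes were lower at an unadjusted p under 0.05 and 0 were higher, against 7.68% and 6.52% of all genes. FADS1 and FADS2 lie on opposite strands and overlap by 801 bases in RefSeq, and the sources used here do not state whether the counting used strand.

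**Figure D2:**
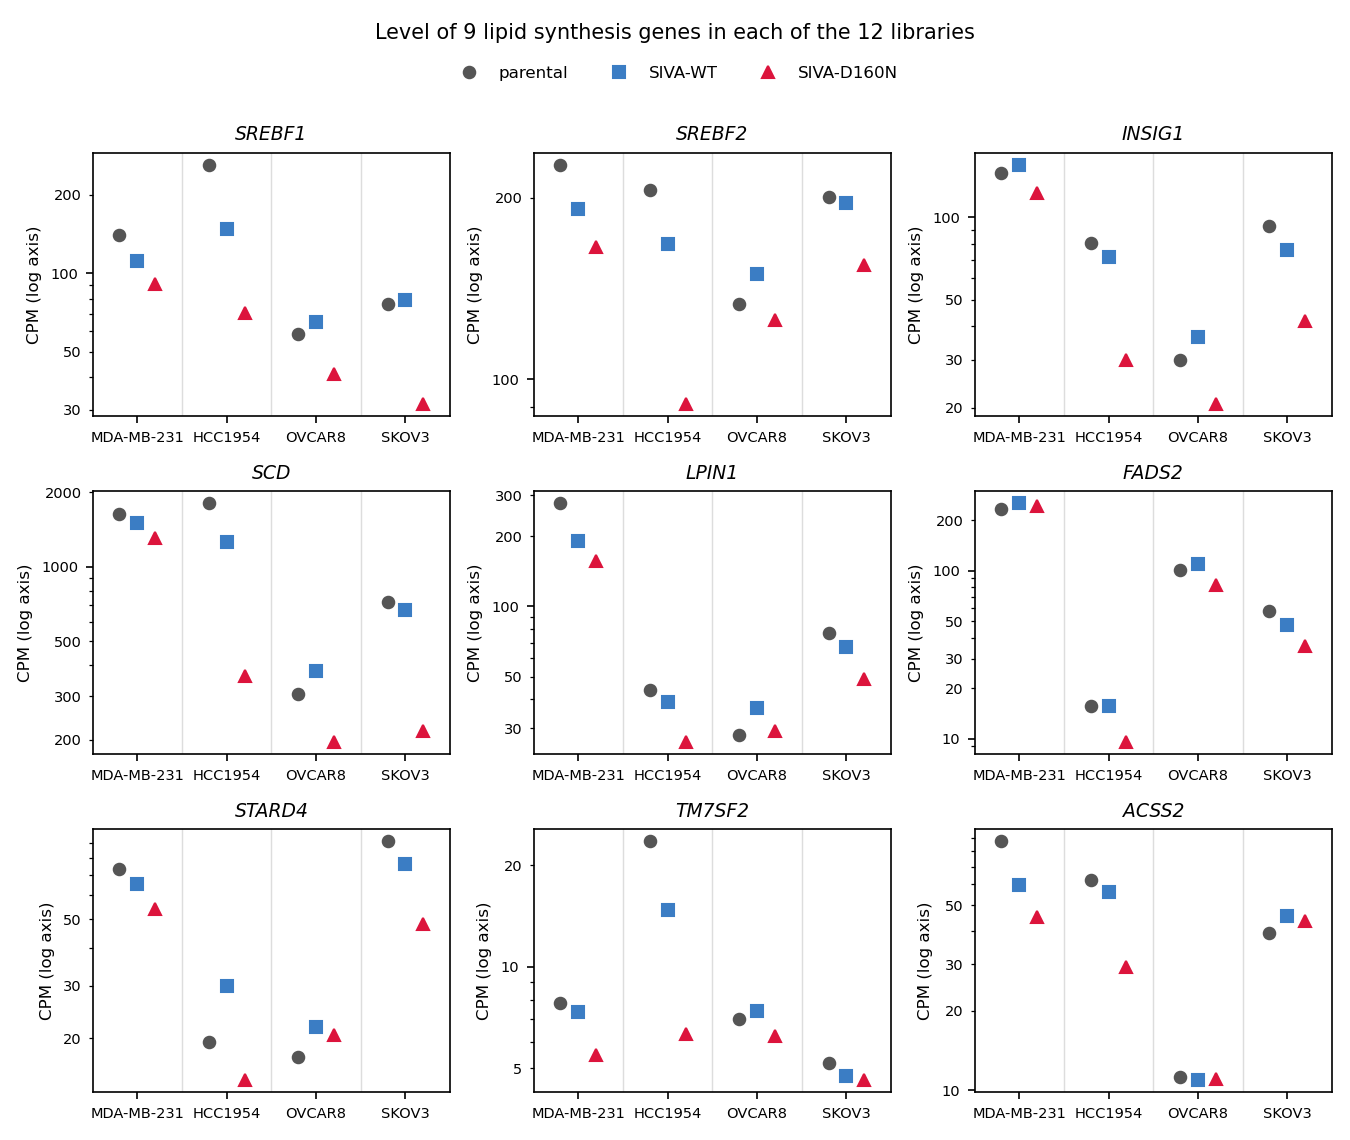
Level in CPM (log axis) of 9 members in each of the 12 libraries, by cell line, with circles for parental, squares for SIVA-WT and triangles for SIVA-D160N. The triangle is the lowest point of each line for SREBF1, SREBF2, INSIG1, SCD and TM7SF2, and the lines differ more from each other than the conditions do for FADS2 and ACSS2.

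In the mevalonate steps, 1 of 7 members was lower at an unadjusted p under 0.05 and 0 were higher, against 7.68% and 6.52% of all genes. FDPS, the farnesyl diphosphate synthase, was at 289.9, 311 and 279 CPM in MDA-MB-231, 357, 316 and 243 CPM in HCC1954, 196, 185 and 165 CPM in OVCAR8 and 146, 159 and 134 CPM in SKOV3. The SIVA-D160N library was the lowest of each line, by small margins in MDA-MB-231 (96.2% of parental) and SKOV3 (91.7%), with a log2 fold change -0.25 ± 0.091, FDR = 0.27. The other 6, from ACAT2 at the entry to the pathway through HMGCS1, MVK, PMVK and MVD to the isomerase IDI1, had fitted log2 fold changes from -0.32 (MVK) to 0.044 (ACAT2). IDI1 was at 86.2, 96.5 and 84.4 CPM in MDA-MB-231, 112, 87.7 and 57.4 CPM in HCC1954, 103, 108 and 106 CPM in OVCAR8 and 58.4, 69.4 and 60.0 CPM in SKOV3, and the SIVA-D160N library stood at 51.3% of parental in HCC1954 and at 97.8% to 103% in the other 3 lines.

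In the steps from squalene to cholesterol, 1 of 11 members was lower at an unadjusted p under 0.05 and 0 were higher. Of all genes 7.68% were lower and 6.52% higher, so the share of lower members was near that of all genes. TM7SF2, a sterol C14 reductase, was at 7.83, 7.35 and 5.47 CPM in MDA-MB-231, 23.6, 14.8 and 6.31 CPM in HCC1954, 7.02, 7.41 and 6.23 CPM in OVCAR8 and 5.19, 4.75 and 4.61 CPM in SKOV3. It was lowest in the SIVA-D160N library of each line, at 26.8% of parental in HCC1954 and 69.8% to 88.7% elsewhere (log2 fold change -0.69 ± 0.25, FDR = 0.27). FDFT1 and SQLE, which make and epoxidise squalene, had -0.21 ± 0.18 (FDR = 0.62) and -0.024 ± 0.10 (FDR = 0.94). LSS, which closes the sterol rings, MSMO1, a sterol C4 oxidase, and DHCR7, which completes cholesterol, had -0.11 ± 0.18 (FDR = 0.83), -0.26 ± 0.12 (FDR = 0.37) and -0.31 ± 0.20 (FDR = 0.51). NSDHL, HSD17B7, EBP and SC5D, enzymes of the same stretch, had fitted log2 fold changes from -0.16 (SC5D) to 0.11 (NSDHL). CYP51A1, the lanosterol demethylase, had the highest fitted value of all members, 0.29 ± 0.20 (FDR = 0.55), on low counts. Its 12 libraries spanned 1.37 to 3.34 CPM and 50 to 136 counts. In GENCODE, annotated read-through genes on its own strand cover 45.4% to 45.5% of its length of 49817 bases (22628 to 22645 bases). RefSeq gives it a shorter span, chr7:92112153-92134803, of which the covered share may be larger. Its level is therefore uncertain where the counting leaves out reads shared by genes. The part of that overlap in its level was not tested.

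Of the transport genes, STARD4, a cholesterol carrier, was at 73.7, 65.7 and 54.1 CPM in MDA-MB-231, 19.5, 29.8 and 14.4 CPM in HCC1954, 17.3, 21.8 and 20.5 CPM in OVCAR8 and 91.1, 76.7 and 48.3 CPM in SKOV3. It was lower in SIVA-D160N than in parental cells in 3 lines and at 118% of parental in OVCAR8 (log2 fold change -0.39 ± 0.18, FDR = 0.35). MYLIP, the ligase that sends lipoprotein receptors to degradation and a target of the sterol-sensing LXR receptors rather than of SREBP, was at 17.9, 20.5 and 19.0 CPM in MDA-MB-231, 31.4, 27.3 and 16.4 CPM in HCC1954, 8.63, 10.4 and 9.44 CPM in OVCAR8 and 19.1, 12.6 and 8.35 CPM in SKOV3. The SIVA-D160N level lay below the parental one in HCC1954 and SKOV3 only (log2 fold change -0.49 ± 0.21, FDR = 0.32). ABCA1, the cholesterol exporter and another LXR target, was at 16.7, 10.7 and 6.90 CPM in MDA-MB-231, 1.92, 1.51 and 1.48 CPM in HCC1954, 1.01, 3.60 and 1.41 CPM in OVCAR8 and 172, 136 and 129 CPM in SKOV3, with -0.56 ± 0.30 (FDR = 0.43) in the fit. ABCG1 was under 1 CPM in 11 of 12 libraries, and its highest level was 1.10 CPM (46 counts) in parental HCC1954.

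SIVA-D160N was next compared with SIVA-WT, which asks whether the substitution, rather than the transfection or more SIVA, goes with the difference. The comparison shares its SIVA-D160N libraries with the previous one, so the 2 sets of values are not independent of each other. Again 0 of 35 members were called (0.00% of all genes were called, 0 of 17211), and 0 had an FDR under 0.05 without the fold limit (0.00%), while DESeq2 gave 1 member, INSIG1 (0.0813% of all genes), and the edgeR fit with every gene of at least 1 count gave SREBF1, INSIG1 and SCD (0.312%). At an unadjusted p under 0.05, 11 members (31.4%) were lower in SIVA-D160N, against 4.30% of all genes, and 0 were higher, against 2.58%. They were SREBF1, SREBF2, INSIG1, HMGCS1, FDPS, MSMO1, STARD4, SCD, FADS1, FADS2 and LPIN1. In 4 of 4 lines, 19 members (54.3%) were lower in SIVA-D160N than in SIVA-WT, against 10.7% of all genes, and 0 were higher, against 12.1%. The median log2 fold change was -0.25 over the members and -0.0029 over all genes.

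The lowest values were those of SCD, at a log2 fold change -1.08 ± 0.28, FDR = 0.72, SREBF1, at a log2 fold change -0.82 ± 0.21, FDR = 0.72, and INSIG1, at a log2 fold change -0.80 ± 0.17, FDR = 0.72. SREBF2 had -0.41 ± 0.14 (FDR = 0.72), LPIN1 -0.41 ± 0.14 (FDR = 0.72) and FADS2 -0.38 ± 0.13 (FDR = 0.72). HMGCS1, the synthase that starts the mevalonate pathway, was at 71.6, 79.9 and 73.1 CPM in MDA-MB-231, 350.0, 341 and 243 CPM in HCC1954, 54.5, 69.6 and 59.4 CPM in OVCAR8 and 193, 202 and 180.2 CPM in SKOV3. Its SIVA-D160N library was below its SIVA-WT library in each line but below the parental one only in HCC1954 and SKOV3 (log2 fold change -0.25 ± 0.10, FDR = 0.72 against SIVA-WT). MSMO1 was at 64.5, 79.8 and 58.5 CPM in MDA-MB-231, 86.2, 83.9 and 49.3 CPM in HCC1954, 52.8, 55.0 and 49.4 CPM in OVCAR8 and 63.5, 72.5 and 62.8 CPM in SKOV3, with the SIVA-D160N library the lowest of each line (log2 fold change -0.38 ± 0.12, FDR = 0.72). FADS1 was at 221, 206 and 177 CPM in MDA-MB-231, 10.7, 13.9 and 10.0 CPM in HCC1954, 215, 244 and 221 CPM in OVCAR8 and 314, 305 and 224 CPM in SKOV3, and its SIVA-D160N library was below SIVA-WT in each line and below parental in MDA-MB-231, HCC1954 and SKOV3 (log2 fold change -0.32 ± 0.10, FDR = 0.72). STARD4 and FDPS had -0.52 ± 0.18 (FDR = 0.72) and -0.23 ± 0.091 (FDR = 0.72).

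No member passed any threshold in SIVA-WT vs parental. None of the 35 members was called in SIVA-WT vs parental (0.00% of all genes, 0 of 17211), 0 had an FDR under 0.05 without the fold limit (0.00%), and 0 had an unadjusted p under 0.05 in either direction, against 1.47% of all genes higher and 1.07% lower. The fitted log2 fold changes ran from -0.25 (SREBF1) to 0.36 (CYP51A1), with a median of 0.016 over the members and -0.0054 over all genes. A single member, HSD17B7, a sterol ketoreductase, was higher in 4 of 4 lines (4.57% of all genes were), at 23.2, 25.9 and 26.1 CPM in MDA-MB-231, 14.1, 15.3 and 10.5 CPM in HCC1954, 7.21, 7.62 and 7.30 CPM in OVCAR8 and 9.27, 9.90 and 9.14 CPM in SKOV3. PMVK, the phosphomevalonate kinase, was lower in 4 of 4 lines (4.77% of all genes were), at 16.1, 14.7 and 16.6 CPM in MDA-MB-231, 48.4, 35.5 and 37.1 CPM in HCC1954, 29.6, 26.5 and 23.3 CPM in OVCAR8 and 22.9, 22.4 and 22.0 CPM in SKOV3. For SCD the log2 fold change was -0.14 ± 0.27 (FDR = 1.000), and for INSIG1 -0.036 ± 0.17 (FDR = 1.000). At least 2-fold ratios of SIVA-WT to parental were seen only in OVCAR8, for ABCA1 (37 and 137 counts) and CYP51A1 (50 and 117 counts), both at low counts. The share of all genes with such ratios was not counted for this comparison.

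The lines differed in how far the members lay from parental. The median log2 ratio of SIVA-D160N to parental over the 35 members was -0.72 in HCC1954, -0.12 in OVCAR8, -0.059 in SKOV3 and 0.030 in MDA-MB-231, while over all genes it was between -0.020 and 0 in each line. In HCC1954, 10 members were at least 2-fold lower (28.6%, against 5.51% of all genes): SREBF1, SREBF2, INSIG1, MVK, FDFT1, TM7SF2, DHCR7, ACSS2, FASN and SCD. SIVA-D160N held between 20.0% (SCD) and 47.7% (FDFT1) of the parental level for these 10. None was at least 2-fold higher there, against 4.73% of all genes.

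SKOV3 had 4 members at least 2-fold lower (11.4%, against 6.05% of all genes), which were SREBF1, INSIG1, MYLIP and SCD, and 0 at least 2-fold higher (2.70% of all genes). Of the 18 enzymes from ACAT2 to DHCR7, 11 stood at or above the parental level in SKOV3, for example ACAT2 at 145%, MVD at 127% and LSS at 121%. The count was also 11 in MDA-MB-231, and it was 5 in OVCAR8 and 1 in HCC1954, namely CYP51A1, whose level is uncertain. Of all genes tested with a count in either library of the line, 46.9% to 49.5% stood at or above parental. MDA-MB-231 had 1 member at least 2-fold lower, ABCA1 (41.2% of parental; 4.30% of all genes), and OVCAR8 had 0 (1.55% of all genes). Neither line had a member at least 2-fold higher, against 2.52% of all genes in MDA-MB-231 and 1.96% in OVCAR8. These ratios come from 1 library each and carry no test.

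**Figure D3:**
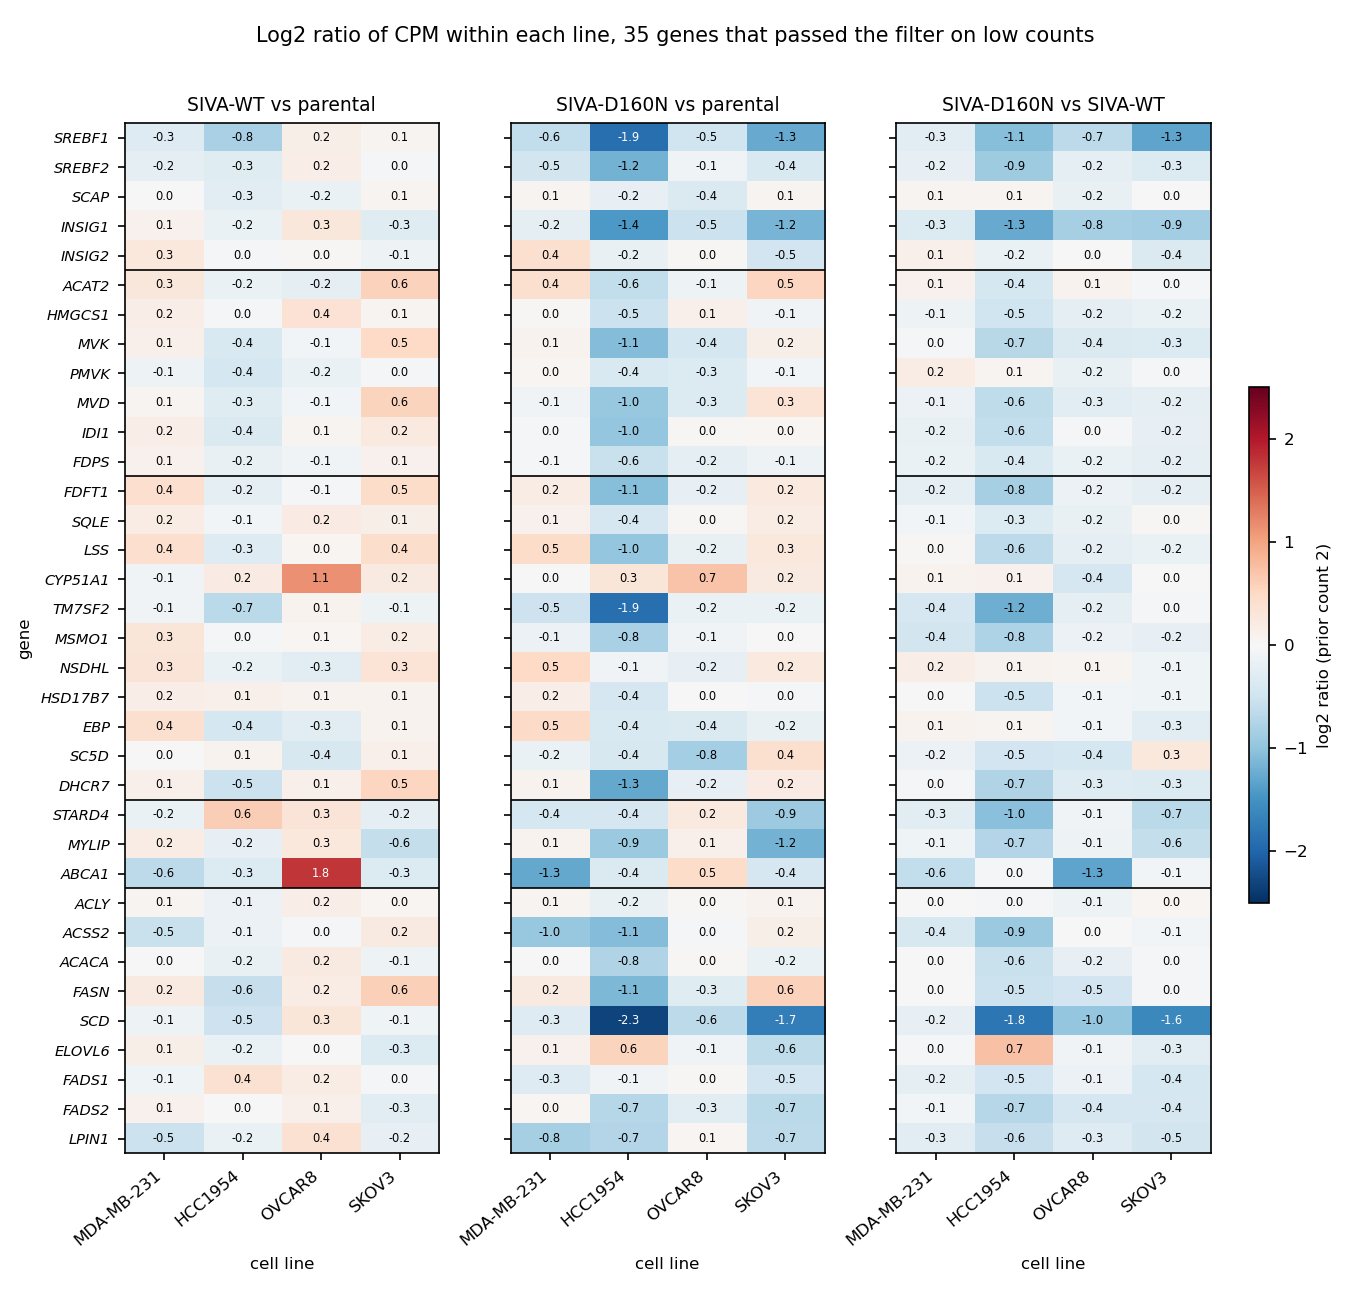
Log2 ratio of CPM within each cell line (columns) for the 35 members tested (rows, grouped by pathway step), in SIVA-WT vs parental, SIVA-D160N vs parental and SIVA-D160N vs SIVA-WT; blue is lower and red is higher in the first-named condition, and the number in each cell is the ratio. The HCC1954 column of the middle panel is blue in nearly every row (median -0.72), while SKOV3 is blue for SREBF1, INSIG1, MYLIP and SCD and near 0 or red for most sterol enzymes.

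Because HCC1954 stood apart, the fit was repeated without its 3 libraries. The median log2 fold change of the members in SIVA-D160N vs parental was then -0.066, and 5 members (SREBF1, SREBF2, INSIG1, SCD and LPIN1) were lower at an unadjusted p under 0.05, against 5.73% of all genes. SCD then had a log2 fold change of -0.86 (FDR = 0.39), SREBF1 of -0.78 (FDR = 0.35), INSIG1 of -0.64 (FDR = 0.35) and SREBF2 of -0.31 (FDR = 0.45). TM7SF2, at -0.29 (FDR = 0.59), FDPS, at -0.14 (FDR = 0.67), MYLIP, at -0.33 (FDR = 0.68), and ACSS2, at -0.29 (FDR = 0.65), no longer had a p under 0.05. Nor had STARD4, at -0.39 (FDR = 0.53), or FADS2, at -0.30 (FDR = 0.53). In SIVA-D160N vs SIVA-WT, 6 members (SREBF1, SREBF2, INSIG1, MSMO1, SCD and FADS1) were lower at an unadjusted p under 0.05, against 1.52% of all genes.

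Other measures moved in the same libraries. ERBB2, a growth factor receptor gene, was at 32.1, 36.4 and 35.4 CPM in MDA-MB-231, 9223, 7697 and 5736 CPM in HCC1954, 78.1, 74.6 and 69.5 CPM in OVCAR8 and 12170.4, 8860.0 and 5964 CPM in SKOV3. It was lower in SIVA-D160N than in parental cells in HCC1954, OVCAR8 and SKOV3, and HCC1954 and SKOV3 are also the lines with the largest differences in SCD. VIM, a mesenchymal marker, was at 95.6, 161 and 290.2 CPM in HCC1954, and PECAM1, an endothelial marker, at 62.8, 60.2 and 32.6 CPM. VIM was lower in SIVA-D160N than in parental cells in MDA-MB-231, OVCAR8 and SKOV3. The epithelial marker KRT8 was at 2866, 2746 and 3800 CPM in HCC1954. COL1A1, a fibroblast marker, was at 23.8, 407 and 504 CPM in SKOV3, but at 340, 257 and 187 CPM in OVCAR8. The parental HCC1954 library, the denominator of the largest ratios, is also the library with 0 SIVA1 counts. The part of these in the members' values was not tested.

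The difference of SIVA-D160N vs parental between ovarian and breast lines was tested as an interaction. By this test 0 of 35 members had an FDR under 0.05, against 0.00581% of all genes (1 gene). At an unadjusted p under 0.05, 2 members, ACSS2 and TM7SF2, had the higher (less negative) value in ovarian lines, 5.71% against 2.93% of all genes, and 1 member, ELOVL6, had the lower value there, 2.86% against 2.13%. The interaction of ACSS2 was 1.08 ± 0.22 (FDR = 0.56), that of TM7SF2 1.04 ± 0.42 (FDR = 0.97) and that of ELOVL6 -0.70 ± 0.28 (FDR = 0.97). ELOVL6 was at 63.6, 70.2 and 68.7 CPM in MDA-MB-231, 72.3, 64.5 and 107 CPM in HCC1954, 73.5, 74.1 and 69.3 CPM in OVCAR8 and 32.3, 25.5 and 20.9 CPM in SKOV3, above parental in SIVA-D160N in both breast lines and below it in both ovarian lines. With 2 lines of each tissue, tissue cannot be told apart from the other differences between these lines.

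The 4 lines differed in nearly all members, whatever the condition. By an F test over the lines, 33 of 35 members (94.3%) had an FDR under 0.05, against 93.9% of all genes, and the 2 that did not were FDFT1 and CYP51A1. The median fold between the highest and lowest line, from the mean log2 level of each, was 2.59 over the members and 3.03 over all genes. HCC1954 was the highest line for 19 members and OVCAR8 the lowest for 18. The same order was not counted over all genes, so these 2 counts cannot be set against a background. The means that follow are over the 3 libraries of a line, which differ in condition, ± SD (n = 3).

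Some single steps of a pathway had little RNA in a line. SC5D, the sterol C5 desaturase that acts shortly before DHCR7, was at 1.32 ± 0.393 CPM for OVCAR8, 43.3 ± 2.76 CPM for MDA-MB-231, 49.8 ± 7.15 CPM for SKOV3 and 50.1 ± 8.59 CPM for HCC1954. It was low in OVCAR8 alone (log2 fold change -5.18 ± 0.21, FDR = 3.4e-09 against the mean of the other lines), with 63, 49 and 36 counts in its 3 libraries. EBP, the sterol isomerase before it, was at 10.9 ± 1.07 CPM for SKOV3, 47.6 ± 8.18 CPM for MDA-MB-231, 60.7 ± 8.10 CPM for OVCAR8 and 135 ± 23.4 CPM for HCC1954, a 12.2-fold range with SKOV3 lowest (log2 fold change -2.74 ± 0.16, FDR = 6.1e-08). ABCA1 had the widest range of all members tested, 86.1-fold, at 1.64 ± 0.244 CPM for HCC1954, 2.01 ± 1.39 CPM for OVCAR8, 11.4 ± 4.97 CPM for MDA-MB-231 and 146 ± 23.1 CPM for SKOV3, and SKOV3 was far above the rest (log2 fold change 5.47 ± 0.24, FDR = 7.6e-09). FADS1 and FADS2, neighbours on chromosome 11, were both low in HCC1954: FADS1 was at 11.5 ± 2.09 CPM for HCC1954, 201 ± 22.5 CPM for MDA-MB-231, 227 ± 15.5 CPM for OVCAR8 and 281 ± 49.6 CPM for SKOV3 (log2 fold change -4.35 ± 0.13, FDR = 1.9e-10).
FADS2 was at 13.6 ± 3.56 CPM for HCC1954, 47.0 ± 10.8 CPM for SKOV3, 97.8 ± 13.8 CPM for OVCAR8 and 243 ± 9.71 CPM for MDA-MB-231 (log2 fold change -2.95 ± 0.14, FDR = 8.9e-09 for HCC1954), and unlike FADS1 it was highest in MDA-MB-231.

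Wide and narrow ranges stood side by side in each step. Among the regulators INSIG1 varied most, 4.96-fold, and SCAP least, 1.29-fold. In the mevalonate steps the widest range was that of HMGCS1 at 5.04-fold (61.2 ± 7.72 CPM for OVCAR8, 74.8 ± 4.44 CPM for MDA-MB-231, 192 ± 10.8 CPM for SKOV3 and 311 ± 59.6 CPM for HCC1954), and the narrowest was that of MVD at 1.65-fold. FDFT1, at 156 ± 11.4 CPM for OVCAR8, 173 ± 26.0 CPM for MDA-MB-231, 186 ± 29.5 CPM for SKOV3 and 188 ± 65.4 CPM for HCC1954, varied 1.18-fold, the least of all members tested. Of the transport genes MYLIP varied least, 2.55-fold, and of the fatty acid genes ACLY, 1.64-fold.

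Against the mean of the other 3 lines, at an FDR under 0.05 and at least 2-fold, MDA-MB-231 had 9 members higher (25.7%, against 16.0% of all genes) and 2 lower (5.71%, against 17.1%). The 9 were INSIG1, HSD17B7, SC5D, STARD4, ACSS2, SCD, FADS1, FADS2 and LPIN1, and the 2 were HMGCS1 and SQLE. HCC1954 had 6 higher (17.1%, against 20.8%), among them SREBF1, HMGCS1 and FASN, and 5 lower (14.3%, against 15.8%). OVCAR8 had FADS1 alone higher (2.86%, against 19.4%) and 8 lower (22.9%, against 14.9%), among them INSIG1, SCD and SC5D. SKOV3 had 4 higher (11.4%, against 19.9%) and 3 lower (8.57%, against 14.7%), the latter EBP, DHCR7 and ELOVL6.

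**Figure D4:**
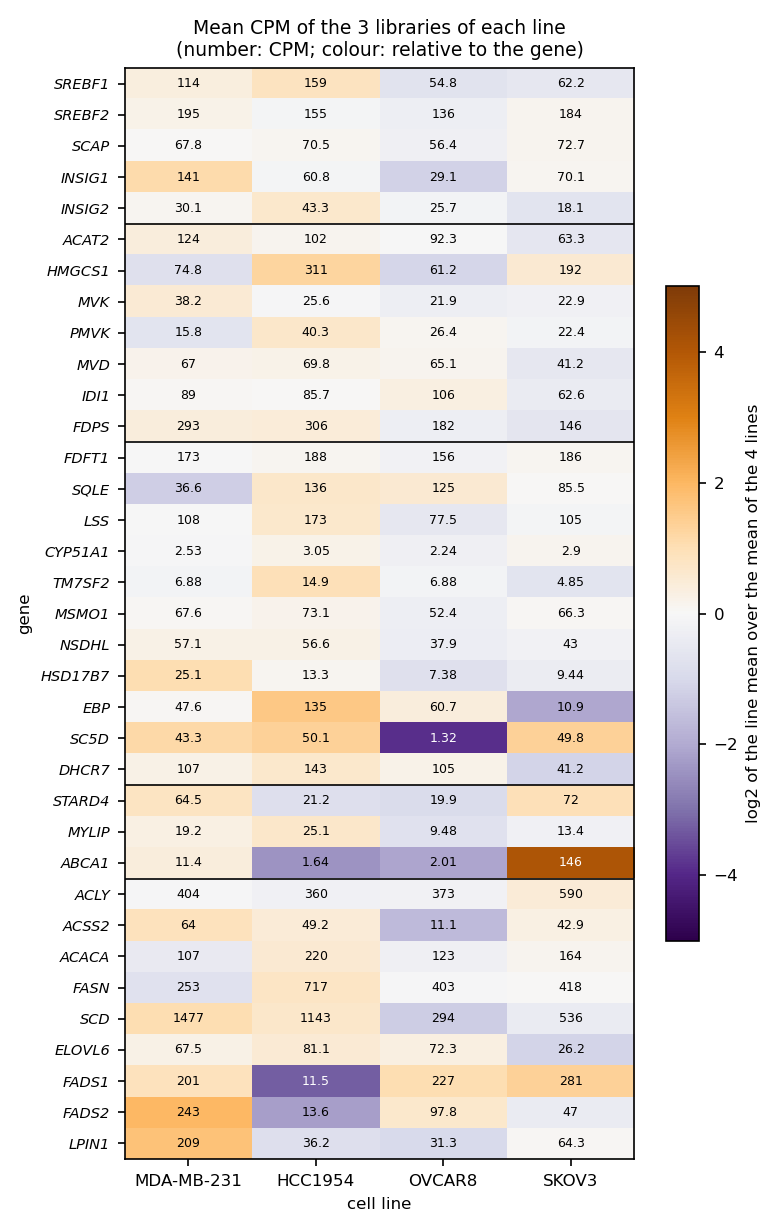
Mean CPM of the 3 libraries of each cell line (number in each cell) for the 35 members tested; the colour is the log2 of that mean over the mean of the gene's 4 log2 values, orange for higher and purple for lower. SC5D in OVCAR8 (1.32 CPM), FADS1 and FADS2 in HCC1954 (11.5 and 13.6 CPM) and ABCA1 in SKOV3 (146 CPM) stand out from their rows.

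Within lines the members varied together. After the mean of its line was taken from each library, the median Pearson correlation over the 595 pairs of the 35 members was 0.49, against -0.0020 over pairs of all genes, and 497 pairs were above 0. The points are 12 libraries that share their line means, depth and the 4 SIVA-D160N libraries, so the value is a description. Without HCC1954 the median was 0.24 over 9 libraries, against -0.0020, and 395 of the 595 pairs were above 0. The share of all gene pairs above 0 was not counted. The closest pairs were INSIG1 with SCD (r = 0.98; 0.97 without HCC1954), INSIG1 with FADS2 (0.98; 0.96), MVK with DHCR7 (0.98; 0.93), MVK with MVD (0.97; 0.92) and SREBF1 with SCD (0.97; 0.97). The lowest was NSDHL with ABCA1 (-0.72; -0.78).

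Genes that act around the members were counted from 3 further lists of 43 genes. Of 8 genes for SREBP cleavage and INSIG turnover, 2 were higher at an unadjusted p under 0.05 in SIVA-D160N vs parental, 25.0% against 6.52% of all genes. These were ERLIN1 (0.27 ± 0.086 (FDR = 0.22)) and PAQR3 (0.33 ± 0.12 (FDR = 0.26)), which act on SREBP retention and Golgi anchoring. Of 12 sterol genes tested, 1 was higher, SOAT1 (0.27 ± 0.072 (FDR = 0.18)), which esterifies cholesterol for storage, and 2 were lower, STARD3 (-0.34 ± 0.11 (FDR = 0.24)) and OSBPL5 (-0.33 ± 0.14 (FDR = 0.31)), which bind sterols or lipids, so 8.33% were higher and 16.7% lower against 6.52% and 7.68% of all genes. STARD3 was at 1693, 1512 and 1442 CPM in HCC1954 and 713, 575 and 405 CPM in SKOV3, the lines highest for ERBB2. In parental MDA-MB-231 and OVCAR8 it was at 34.5 and 47.3 CPM. Of 21 fatty acid and lipid genes tested, 1 was higher, GPAM (0.52 ± 0.14 (FDR = 0.19)), the first acyltransferase of glycerolipid synthesis, and 2 were lower, ACSL3 (-0.33 ± 0.094 (FDR = 0.2)), an acyl-CoA synthetase, and MLXIPL (-0.74 ± 0.30 (FDR = 0.31)), the carbohydrate-responsive lipogenic factor, which was at 0.0985 to 4.50 CPM. These shares, 4.76% higher and 9.52% lower, are near those of all genes. SOAT1 was at 75.0, 84.2 and 88.4 CPM in MDA-MB-231, 52.2, 55.2 and 65.7 CPM in HCC1954, 123, 131 and 146 CPM in OVCAR8 and 66.5, 68.1 and 79.9 CPM in SKOV3, and GPAM at 25.1, 24.9 and 26.4 CPM in MDA-MB-231, 21.8, 27.6 and 36.1 CPM in HCC1954, 27.8, 30.0 and 34.5 CPM in OVCAR8 and 35.1, 61.3 and 70.3 CPM in SKOV3. Both were highest in the SIVA-D160N library of each line, opposite in direction to SCD. The lowest FDR in the 3 lists was 0.176, and 0 of the 41 genes tested were called. The other 2 of the 43 did not pass the filter on low counts. The median log2 fold changes of the lists were 0.070, -0.13 and -0.039.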

How the data were processed

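Stranded mRNA libraries of 12 samples were sequenced as paired-end reads. The authors checked the reads with FastQC, aligned them to GRCh38 with STAR 2.5.3a (per the processing notes of the labels) and deposited raw gene counts for 57187 genes; the annotation release is not given in the sources used here. The authors also deposited CPM values, a TMM rescaling of the same counts, which were not used. Each column was matched to a library by name, 0 were left over, and no pair of libraries was identical.

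The fit used edgeR 4.0.16 in R 4.3.3 (glmQLFit, glmQLFTest, TMM, filterByExpr by condition, 17211 genes) with terms for line and condition. The line is the replicate block, since the labels give the 3 libraries of a block the same line. Their deviations from the condition means correlated at 0.93 to 0.97, and those of different lines at -0.45 to -0.19. Taking away the condition means itself pushes the values of different lines below 0. Ratios within a line used log2 CPM with a prior count of 2. For comparisons of conditions, p-values measure the spread between 4 lines with 1 library per condition. For differences between lines, they rest on the spread of the 3 libraries of a line, which differ in condition, and not on replicate lines. On simulated data the fit called 95.4% of 195 changed genes tested, of 16910, 3 unchanged genes, and 0 genes in a contrast without change. DESeq2 1.42.0, limma-voom (limma 3.58.1), other normalizations, filters and left-out lines were alternatives. Tables and figures were made in Python 3.11.15 with matplotlib 3.10.9.

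The members, lists, tests and alternatives were chosen with earlier results of these data known. Members with an unadjusted p under 0.05 in any contrast, those with the widest and narrowest range between lines in each step, and those at least 2-fold apart within a line were named with values. Among the further lists, 1 gene counts toward its list total and median, but its own result is not reported here.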

Additional observations from a re-analysis of the deposited data

Results flagged for a closer look

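In 105 sets of 4 values (for each of the 35 members tested, the SIVA-D160N to parental ratio, the SIVA-D160N to SIVA-WT ratio and the parental level in the 4 lines), 7 sets had a line far from the other 3 by Dixon's test, and chance flags about 1 set in 20, or 5.25 of 105. In SIVA-D160N vs parental, IDI1 in HCC1954 had a log2 ratio of -0.96 against -0.032 to 0.040 in the other lines. In the same comparison MSMO1 in HCC1954 had -0.81 against -0.14 to -0.017. In SIVA-D160N vs SIVA-WT, FDFT1 in HCC1954 had -0.83 against -0.24 to -0.15. Of the parental levels in log2 CPM, LSS was 7.82 in HCC1954 against 6.32 to 6.47 in the other lines. FADS1 was 3.42 in HCC1954 against 7.75 to 8.29. SC5D was 0.83 in OVCAR8 against 5.45 to 5.74. CYP51A1, whose level is uncertain, was 0.51 in OVCAR8 against 1.40 to 1.47.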

How the results depend on the processing

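Each line gave 1 library per condition, so the tests rest on 4 lines, a small difference in a gene of few counts is not detectable at this depth, and the intervals of a single library cover counting error only. No member was called in any of the 3 comparisons under any of the 12 alternatives, and every member with an unadjusted p under 0.05 in SIVA-D160N vs parental or vs SIVA-WT had the same direction there under all 12. In all, 21 counts moved by over 1.5 times and 243 did not. The cause was not tested, apart from the smaller number of libraries in a fit without a line or a condition.

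For SIVA-D160N vs parental, 11 members were lower at an unadjusted p under 0.05. They became 17 with every gene of at least 1 count (5.49% of all genes), 7 with only the 2 groups compared (4.35%) and 2 with no replicate block (0.0755%). With a line left out they became 5 to 12, against 5.73% to 8.18% of all genes, the 5 without HCC1954 (5.73%). For SIVA-D160N vs SIVA-WT, the 11 became 19 (3.63%) with every gene of at least 1 count, 22 (7.22%) with only the 2 groups compared and 0 (0.0174%) with no replicate block. With a line left out they became 6 to 10, against 1.52% to 4.39% of all genes, the 6 without HCC1954 (1.52%). With an FDR under 0.05 and no fold limit, an alternative chosen after seeing the data, 0 members became 5 with every gene of at least 1 count and 4 with DESeq2 for SIVA-D160N vs parental, and 3 and 1 for SIVA-D160N vs SIVA-WT. The fit with every gene of at least 1 count also gave 1 member, ACSS2, for the interaction between ovarian and breast lines. The share of all genes for that interaction is not given, so this count cannot be set against a background.

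For SIVA-WT vs parental, 0 members became 0 to 2 higher and 0 to 2 lower when a line was left out, the 2 higher (FDFT1 and LSS) without HCC1954 and the 2 lower (ABCA1 and LPIN1) without OVCAR8. Between lines, leaving out a line gave 1 to 3 members lower in MDA-MB-231 (1 without HCC1954), 3 to 5 lower in HCC1954 (3 without MDA-MB-231), 1 to 2 higher in OVCAR8 (2 without MDA-MB-231 or HCC1954), and 2 to 4 higher and 3 to 7 lower in SKOV3 (2 and 7 without OVCAR8). The shares of all genes under these settings are not given, so the counts in this paragraph cannot be set against a background.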
